A study of Homo sapiens with 4 samples.

Results

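ISG15 conjugation and removal is carried out by a short set of proteins. The transcripts of 6 genes grouped under that name were followed here: ISG15, UBA7, UBE2L6, HERC5, HERC6 and USP18. They were chosen by gene symbol from 46427 rows of the count sheets, and each symbol stood in all 4 libraries. The cells were H1944, an established line of human lung cancer cells grown in culture. The BAY1217389 group had been exposed for 48 h to BAY1217389, an inhibitor of the mitotic kinase MPS1 (TTK), and was collected 24 h after the inhibitor was washed out. The DMSO group received the vehicle DMSO over the same times. Each group had 2 libraries that the labels name as biological replicates, no dose is given in the labels, and both groups are the same single cell line with no other alteration named. The series as a whole concerns negative regulators of STING, a sensor pathway for DNA in the cytosol.

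ISG15 is a small protein built of a pair of ubiquitin-like domains, and interferon is its classical inducer. Like ubiquitin it is attached to lysines of other proteins through a relay: the E1 enzyme UBA7 activates it, the E2 enzyme UBE2L6 carries it, and HERC5 is the main ligase that attaches it in human cells. HERC6 is a close relative of HERC5, and in the mouse, which lacks HERC5, Herc6 takes the ligase's place. USP18 removes ISG15 from its targets and, apart from that protease activity, binds the type I interferon receptor and damps its signalling. ISG15 also exists free inside cells and is secreted. Genes of this kind commonly carry an interferon-stimulated response element, a short promoter motif bound by ISGF3, a transcription factor complex activated by interferon.

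Gene counts summed to 43661342 and 43067647 in the BAY1217389 libraries, and to 39332931 and 38904473 in the DMSO libraries. Levels are given as CPM, a gene's counts scaled to the size of its library. Of the 9 lung epithelial cancer cell markers listed, 6 had reads, with KRT8 the highest, while KRT19, NKX2-1 and SFTPB had 0 in all 4 libraries. These 9 summed to 4790 and 4950 CPM with BAY1217389, against 4126 and 4134 CPM with DMSO. The keratins KRT8, KRT18 and KRT7 made up nearly all of that sum. EPCAM had only 1.90 to 2.96 CPM and NAPSA 0.613 to 0.872 CPM over the 4 libraries. The 7 leukocyte markers summed to 165 and 170 CPM with BAY1217389, against 72.5 and 76.3 CPM with DMSO. Nearly all of that sum was CD68, a lysosomal protein, and PTPRC, the common leukocyte antigen, was at 0 throughout. The 5 endothelial markers summed to 2.00 and 1.92 CPM against 0.787 and 0.792 CPM, with CLDN5 at 0, and the 6 fibroblast markers to 46.3 and 45.8 CPM against 33.4 and 29.7 CPM, with COL1A2 at 0. The part of these marker levels in the results below was not tested.

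All 6 pathway genes were higher in BAY1217389-treated cells, by 5.34-fold for HERC6 to 13.1-fold for USP18, and their median log2 fold change was 2.88. In each of the 6, both BAY1217389 libraries lay above both DMSO libraries. Of the 16738 genes tested, 14.5% were called higher at an adjusted p under 0.05 and 1.43% were called higher with a log2 fold change of at least 2, a size that each of the 6 reached. At a log2 fold change of at least 1 the share was 3.21%. Both BAY1217389 libraries lay above both DMSO libraries in 30.5% of tested genes, the groups did not overlap in either direction in 61.0%, and the median log2 fold change over all tested genes was 0.0. The test was edgeR's quasi-likelihood test, two-sided, with Benjamini-Hochberg adjustment over all tested genes, and every adjusted p below comes from it. Because nothing in the labels says how the replicates were separated, these p-values measure only the spread between the libraries. In bulk RNA, more transcripts per cell and more cells expressing a gene cannot be told apart.

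**Figure D1:**
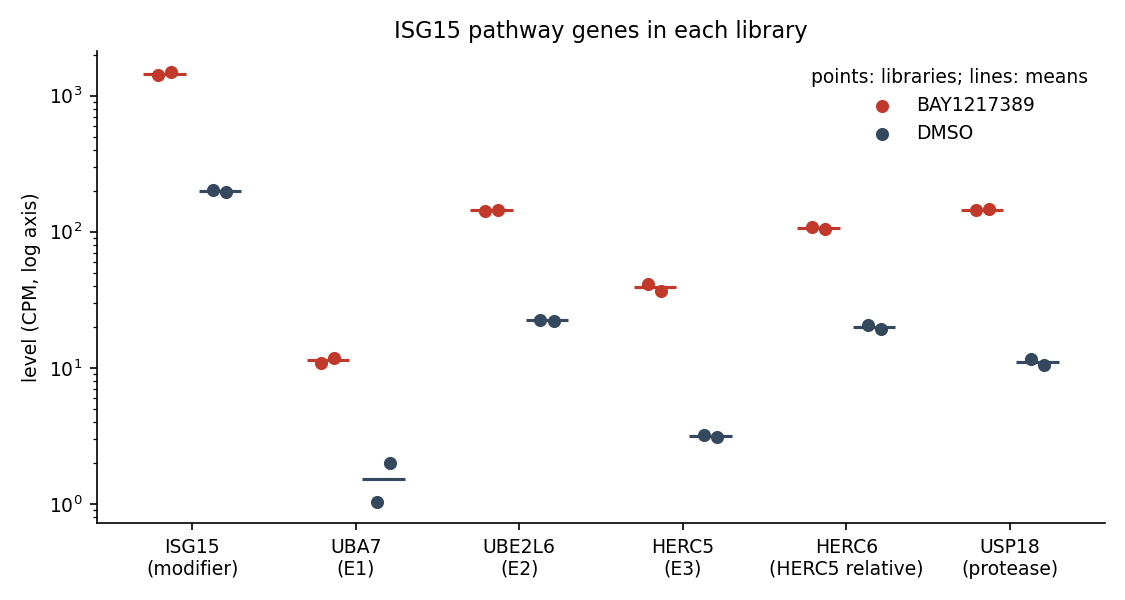
Level of each ISG15 pathway gene in CPM (log axis) in the 2 BAY1217389 libraries, left, and the 2 DMSO libraries, right, with points for libraries and lines for group means. Both BAY1217389 points lie above both DMSO points in all 6 genes, and UBA7 has the widest gap between DMSO libraries.

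ISG15, the modifier itself, was the most abundant of the set per kilobase of transcript. It had 1419 and 1483 CPM in the BAY1217389 libraries, against 202 and 196 CPM in the DMSO libraries. The groups did not overlap, and the gap between replicates was small beside the gap between groups. The log2 fold change was 2.86 (SE 0.03, adjusted p = 5.5e-39), a 7.28-fold difference. Per kilobase of transcript, ISG15 stood at 2278 ± 71.0 CPM with BAY1217389 and at 313 ± 6.76 CPM with DMSO (SD, n = 2 each). On that per-length scale it was the gene of rank 5 in both BAY1217389 libraries, against ranks 168 and 170 in the DMSO libraries, among 14696 genes with a transcript length.

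The promoter bases of ISG15 and HERC5 are shown because both hold the interferon-stimulated response element core, and both genes were higher with BAY1217389. Each stretch is the 150 bases before the gene start in RefSeq GRCh38.p14, printed from the plus strand, at chr1:1013347-1013496 for ISG15 and chr4:88456969-88457118 for HERC5. Capitals mark matches to the core, GAAA, any 2 bases and GAAA on the plus strand, or TTTC, any 2 bases and TTTC where the core lies on the other strand.
ISG15: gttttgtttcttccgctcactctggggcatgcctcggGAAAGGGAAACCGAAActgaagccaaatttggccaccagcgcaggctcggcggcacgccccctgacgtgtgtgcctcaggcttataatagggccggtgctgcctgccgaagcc
HERC5: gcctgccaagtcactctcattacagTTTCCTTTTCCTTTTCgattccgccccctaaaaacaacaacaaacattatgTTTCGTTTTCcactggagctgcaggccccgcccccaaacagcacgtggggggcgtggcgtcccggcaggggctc

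The ISG15 window held 2 overlapping matches, from 113 to 98 bases before the start. The HERC5 window held 3 matches on the other strand, the first beginning 125 bases and the last ending 65 bases before the start, of which the upstream pair overlap. Over the 250 bases before the start, the core occurred in 1061 of 35116 RefSeq promoter windows, or 3.02%. The windows of HERC6 and UBE2L6 did not hold these letters. The core of the other interferon motif, the gamma-activated site TTCNNNGAA, occurred in 6.57% of windows and in none of the ISG15, HERC5, HERC6 and UBE2L6 windows. The table had entries for 4 of the 6 genes, UBA7 and USP18 being those without one. A match is a description of letters and not a measured binding site.

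UBA7, the activating enzyme, was the least abundant of the set per kilobase and the least precisely measured. It had 10.9 and 11.8 CPM in the BAY1217389 libraries, against 1.04 and 1.99 CPM in the DMSO libraries. The groups did not overlap, but the DMSO libraries differed 1.91-fold from each other on 41 and 78 reads, and their 95% counting intervals, 0.747 to 1.41 and 1.57 to 2.49 CPM, did not overlap either. The log2 fold change was 2.90 (SE 0.19, adjusted p = 3.37e-11), a 7.47-fold difference. Without DMSO replicate 1 the log2 fold change was 2.50, and without DMSO replicate 2 it was 3.44, so the size of the difference, 5.66-fold or 10.9-fold, depended on which DMSO library was kept while the call did not. In those fits the lone DMSO library is assumed to vary like the BAY1217389 libraries, which supply the spread.

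UBE2L6, the conjugating enzyme that takes ISG15 from UBA7, had 142 and 145 CPM with BAY1217389, against 22.6 and 22.2 CPM with DMSO. The replicates of each group were close together and the groups did not overlap. Its log2 fold change was 2.68 (SE 0.05, adjusted p = 6.59e-32). UBE2L3, its closest relative among the conjugating enzymes and one that serves ubiquitin, had 145 and 148 CPM with BAY1217389, against 148 and 147 CPM with DMSO, with a log2 fold change of -0.01 (SE 0.04, adjusted p = 0.894).

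The HERC ligases differed from each other in the size of the difference. HERC5 had 41.4 and 36.9 CPM with BAY1217389, against 3.20 and 3.09 CPM with DMSO. Both treated libraries stood far above both DMSO libraries, and the log2 fold change was 3.64 (SE 0.10, adjusted p = 5.6e-26). HERC6 had 108 and 105 CPM with BAY1217389, against 20.8 and 19.2 CPM with DMSO. Here too the groups did not overlap, and the log2 fold change of 2.42 (SE 0.05, adjusted p = 5.12e-29) was the smallest of the set. HERC3, which lies near this pair on chromosome 4, had 6.13 and 6.61 CPM with BAY1217389, against 5.99 and 5.98 CPM with DMSO, and was not called (log2 fold change 0.09, SE 0.14, adjusted p = 0.693).

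USP18, the protease that removes ISG15, had 6274 and 6234 reads with BAY1217389, against 458 and 410 with DMSO, and its log2 fold change of 3.71 (SE 0.05, adjusted p = 3.5e-34) was the largest of the set. USP41 is a near copy of part of USP18 that current RefSeq annotation treats as a pseudogene. It had 11.5 and 11.4 CPM with BAY1217389, against 0.660 and 0.638 CPM with DMSO, and a log2 fold change of 4.13 (SE 0.18, adjusted p = 8.31e-20). Of the distinct stretches of 50 bases in GENCODE v29 transcripts of USP18, 23.0% also occurred in USP41, and 31.1% of those of USP41 also occurred in USP18. How the authors' counting divided reads between them is uncertain, and with their reads summed the log2 fold change was 3.74. ISG15, UBE2L6 and HERC5 shared no such stretch with any other gene, HERC6 shared 0.626% and UBA7 shared 1.24%.

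Summed over the set, the 6 genes held 81273 and 82542 reads with BAY1217389, against 10306 and 9911 reads with DMSO. That was 0.186% and 0.192% of the reads assigned to genes with BAY1217389, against 0.0262% and 0.0255% with DMSO. ISG15 supplied 76.1% and 76.9% of the set's reads with BAY1217389, against 77.4% and 77.5% with DMSO. The other genes of the set, HERC6 included, summed to 446 and 445 CPM with BAY1217389, against 59.2 and 56.9 CPM with DMSO.

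Counting each enzyme per 1000 ISG15 reads of the same library sets the members against each other without any scaling between libraries. USP18 had 101 and 98.2 reads per 1000 ISG15 reads with BAY1217389, against 57.5 and 53.4 with DMSO, a ratio of means of 1.80. HERC5 had 29.2 and 24.9 with BAY1217389, against 15.8 and 15.7 with DMSO, a ratio of 1.71. For these genes, the main ligase and the protease, both treated libraries were above both DMSO libraries, so their reads were more numerous relative to ISG15 as well as in CPM.

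The other enzymes did not share that pattern. HERC6 had 75.9 and 71.1 reads per 1000 ISG15 reads with BAY1217389, against 103 and 97.6 with DMSO, a ratio of 0.734. UBE2L6 had 99.9 and 97.9 with BAY1217389, against 112 and 113 with DMSO, a ratio of 0.881. Both were lower relative to ISG15 in both treated libraries, although higher in CPM. The fold change of ISG15 itself ranked 125 among the 16738 tested genes, so nearly all tested genes fell relative to ISG15. The lower ratios are thus not particular to HERC6 and UBE2L6. How often the groups lie apart on this scale over all tested genes was not computed. UBA7 had 7.70 and 7.92 with BAY1217389, which lay between the 5.14 and 10.2 of the DMSO libraries. With 2 libraries against 2, an exact permutation test cannot go below p = 0.33, so these ratios are given without a test.

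**Figure D2:**
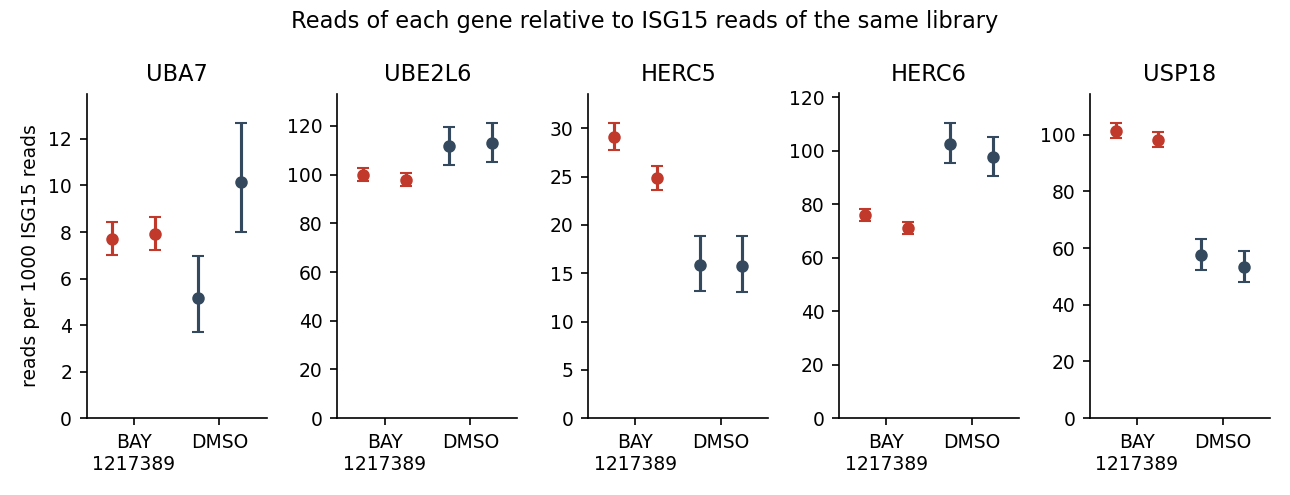
Reads of each enzyme per 1000 ISG15 reads of the same library, BAY1217389 left and DMSO right of each pair, with 95% Clopper-Pearson intervals for counting error. USP18 and HERC5 are higher with BAY1217389, HERC6 and UBE2L6 are lower, and the UBA7 groups overlap.

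Levels of different genes were compared per kilobase of the longest GENCODE v29 transcript. With BAY1217389 the order after ISG15 was UBE2L6 at 91.2 ± 1.58 CPM per kilobase, USP18 at 68.0 ± 0.551, HERC6 at 28.2 ± 0.423, HERC5 at 11.1 ± 0.903 and UBA7 at 3.44 ± 0.177 (SD, n = 2 each). No neighbours in this order overlapped between libraries. With DMSO, UBE2L6 stood at 14.2 ± 0.189 CPM per kilobase, HERC6 at 5.28 ± 0.305, USP18 at 5.19 ± 0.383, HERC5 at 0.895 ± 0.0217 and UBA7 at 0.460 ± 0.204 (SD, n = 2 each). HERC6 and USP18 did not differ beyond their spread there. With BAY1217389 the USP18 libraries stood above the HERC6 libraries.

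Each member was also placed in its own protein family, on the same per-kilobase scale. Among 22 ubiquitin-like modifiers ISG15 held 42.1% and 42.9% of the family's summed level with BAY1217389 and ranked 1 in both libraries, against 9.79% and 9.45% and rank 4 with DMSO, where the ubiquitin and ribosomal fusion gene RPS27A ranked first. USP18 ranked 1 of 49 ubiquitin-specific proteases with BAY1217389, against 25 and 28 with DMSO, where USP22 ranked first. UBE2L6 ranked 2 of 38 conjugating enzymes with BAY1217389, behind UBE2H, against 30 with DMSO.

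HERC6 ranked 1 of 6 HERC genes with BAY1217389 and 2 with DMSO, behind HERC4, and HERC5 ranked 3 with BAY1217389 and 6 with DMSO. UBA7 stayed near the bottom of its family, at 9 of 10 activating enzymes with BAY1217389 and 10 with DMSO. It held 1.21% and 1.29% of the summed level of activating enzymes with BAY1217389, against 0.112% and 0.217% with DMSO. The first enzyme of the ISG15 relay was thus the scarcest transcript of the pathway in both groups on this scale.

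**Figure D3:**
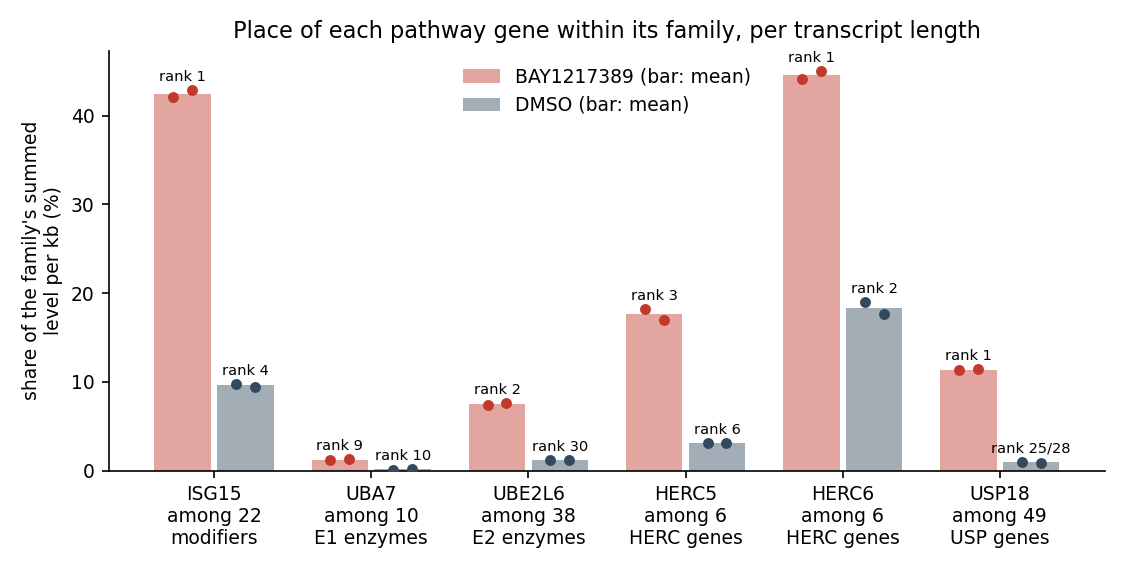
Share of each family's summed CPM per kilobase held by the ISG15 pathway gene, in the BAY1217389 libraries (left of each pair) and the DMSO libraries (right), with bars for means, points for libraries and the gene's rank in its family above each bar. With BAY1217389, ISG15 holds 42.1% and 42.9% of the modifiers and HERC6 44.2% and 45.1% of the HERC genes, while UBA7 holds 1.21% and 1.29% of the activating enzymes.

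The relatives of these genes in the ubiquitin system mostly showed small differences. The counts of such lists stand beside 14.5% of all tested genes called higher and 13.3% called lower. Among the 21 other modifiers tested, 5 were called higher, 4 lower and 12 were not called, with a median log2 fold change of 0.06. OASL, an antiviral protein that also ends in ubiquitin-like domains, had 364 and 363 CPM with BAY1217389, against 51.1 and 49.8 CPM with DMSO, a log2 fold change of 2.85 (SE 0.04). The autophagy modifier GABARAPL1 (0.33) rose and RPS27A (-0.17) fell by small log2 amounts. UBD, the ubiquitin-like modifier FAT10 and named after its value was seen, had 2.52 and 1.96 CPM with BAY1217389, against 0.660 and 0.664 CPM with DMSO, with a log2 fold change of 1.76 (SE 0.30).

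Among the 9 other activating enzymes, 2 were called higher, 2 lower and 5 were not called, with a median of 0.04. UBA1, the main ubiquitin E1, had a log2 fold change of 0.17 and UBA6, a second ubiquitin E1, of 0.20. The SUMO-activating pair SAE1 (-0.20) and UBA2 (-0.14) fell. UBA7, at 2.90, stood far above all 4.

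Among the 37 other conjugating enzymes, 4 were called higher, 7 lower and 26 were not called, with a median of -0.04. The lowest log2 fold changes were those of UBE2C (-0.86, SE 0.11) and UBE2S (-0.61, SE 0.03). UBE2C averaged 7.79 ± 0.0165 CPM with BAY1217389 and 14.1 ± 1.29 CPM with DMSO (SD, n = 2 each), and UBE2S had 148 and 149 CPM against 222 and 230 CPM. Both serve the anaphase-promoting complex, which drives exit from mitosis. UBE2Z (0.27) and UBE2D3 (0.17) rose slightly. Of the 4 other HERC genes 1 was called, HERC1, higher with a log2 fold change of 0.18 (SE 0.06). That call was lost in 5 of 13 alternatives, namely without DMSO replicate 2, without either BAY1217389 replicate, with DESeq2 and in the test against a fold of 1.2. Its adjusted p ran from 0.00754 to 1.0 over the alternatives.

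Among the 50 other ubiquitin-specific proteases, 10 were called higher, 6 lower and 34 were not called, with a median of 0.06. Apart from USP41, the named members moved little. CYLD, which removes ubiquitin chains in NF-kB signalling, rose by a log2 fold change of 0.54 (SE 0.06), USP9X rose by 0.28, and USP22, a subunit of the SAGA complex, fell with a log2 fold change of -0.21.

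**Figure D4:**
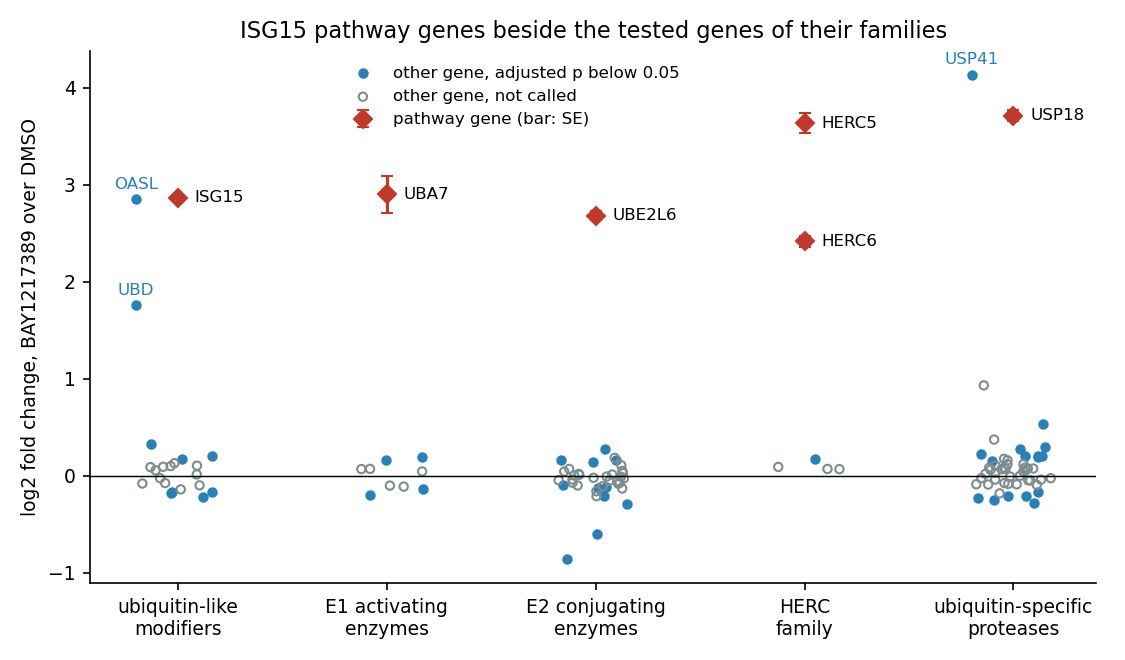
Log2 fold change, BAY1217389 over DMSO, of each ISG15 pathway gene (red diamonds, bars are SE) beside every other tested gene of its family (filled where adjusted p was under 0.05). The 6 pathway genes lie between 2.42 and 3.71, and among the other genes OASL (2.85), UBD (1.76) and USP41 (4.13) stand apart and the lowest is UBE2C at -0.86.

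Other proteins reported to take part in ISG15 transfer, or to bind or regulate it, showed a mixed picture. Of 12 tested, 8 were called higher, 1 lower and 3 were not called, and the median was 0.52. The 8 include USP41, with a log2 fold change of 4.13, whose reads cannot be divided with certainty from those of USP18. No median without USP41 was computed. TRIM25, a ubiquitin ligase also reported to attach ISG15, had 465 and 461 CPM with BAY1217389, against 212 and 213 CPM with DMSO, a log2 fold change of 1.12 (SE 0.03). RIG-I, listed as DDX58, rose by 3.14 and MDA5, listed as IFIH1, by 3.04 on the log2 scale. Both are sensors of viral RNA that are themselves reported to be ISGylated or bound by ISG15. STAT2, the docking partner through which USP18 reaches the interferon receptor, rose by 1.85.

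Of 7 tested proteases other than USP18 that are reported to react with or cleave ISG15, 0 were called higher, 2 lower and 5 were not called by edgeR's test, a list too short to set apart from the 14.5% and 13.3% over all genes. At an unadjusted p under 0.05, and with DESeq2 or limma-voom, the counts were likewise 0 higher and 2 lower. The called pair were USP21, with a log2 fold change of -0.25 (SE 0.07), and USP13, with -0.28 (SE 0.08). Over the alternatives run, the adjusted p of USP21 ran from 0.00263 to 1.0 and that of USP13 from 0.00352 to 0.893. USP16 (-0.08) and USP24 (0.07) were not called. Of 12 proteases for the modifiers SUMO, NEDD8 and UFM1, 0 were called higher and 4 lower by edgeR's test, against 13.3% called lower over all tested genes. Those 4 were DESI2 (-0.22), SENP3 (-0.18), SENP6 (-0.16) and COPS5 (-0.14). At an unadjusted p under 0.05 the counts were 0 higher and 5 lower, with DESeq2 0 and 3, and with limma-voom 0 and 4. The call of COPS5 was lost in 5 of 13 alternatives and that of SENP6 in 2.

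Of 7 genes for ISGF3 and its receptor kinases, 5 were called higher, with a median of 0.24. IRF9, the DNA-binding subunit, had 89.0 and 90.9 CPM with BAY1217389, against 46.4 and 45.5 CPM with DMSO, a log2 fold change of 0.97 (SE 0.05). The kinase JAK1 rose by 0.17 on the log2 scale. Of 22 proteins reported as ISG15 targets, 10 were called higher, 1 lower and 11 were not called, with a median of 0.13. The largest differences among the named targets were those of the antiviral genes MX1 (4.03), IFIT1 (3.99) and IFIT3 (3.71). The median of the targets, 0.13, compares with 2.88 for the 6 pathway genes.

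The genes whose centred log2 CPM over the 4 libraries lay closest to the mean profile of the 6 were searched among all tested genes. HELZ2, a helicase-domain coactivator, was nearest, at a distance of 0.085, with 622 and 640 CPM with BAY1217389 against 79.6 and 79.3 CPM with DMSO. IFI6, an interferon-induced mitochondrial protein, followed at 0.091, with 1339 and 1326 CPM against 170 and 170 CPM. The other 3 nearest, LOC101928373, ZBTB45P2 and SRL, had 14 to 16 reads in each BAY1217389 library and 0 in both DMSO libraries. Against 3 reads put over the DMSO group, the ratio was 8.79 for LOC101928373 and ZBTB45P2, which had identical counts, and 9.70 for SRL. These ratios leave out the counting error of the BAY1217389 reads. Among the 6 themselves the distance to their own mean ran from 0.199 for ISG15 to 0.693 for USP18. For these 3 genes the profile depends on the prior count of 2 added before taking logs, since their fitted log2 fold changes were 6.80, 6.80 and 6.95, and they passed the filter only through the BAY1217389 libraries. Their closeness to the set is therefore not interpretable, and the likeness of HELZ2 and IFI6 rests on 4 libraries in 2 groups.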

How the data were processed

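Poly(A) RNA was made into stranded libraries with a TruSeq kit, per the labels' protocols. Per the file headers, the deposited values are read counts for each gene, all whole numbers and not normalised. The submitters' processing notes name hg18 as the genome build. Which aligner and counter were used, and whether strand was considered, is not given in the sources used here. Counts of overlapping and near-identical genes are therefore uncertain. A further 16 value columns, with only 4 distinct names among them, matched no sample and were not used.

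The count test was edgeR 4.0.16, run in R 4.3.3. Its filterByExpr (minimum count 10, minimum total 15) kept 16738 genes and left out 29689 rows, and all 6 pathway genes passed. TMM factors lay between 0.994 and 1.01. A robust quasi-likelihood fit with treatment as its term was tested two-sided, adjusted by the Benjamini-Hochberg method at 0.05. It had 2 residual and 31.1 prior degrees of freedom, and log2 fold changes are BAY1217389 minus DMSO. Other designs and filters, DESeq2 1.42.0 and limma 3.58.1 were alternatives. The fit was tested on simulated data.

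The pathway genes and the 10 gene lists, written from textbook knowledge, were chosen with earlier results of these data known. Named genes were the 6, up to 4 genes of each list by smallest p, 4 paralogs (USP41, UBE2L3, UBA1, HERC3) and the 5 nearest profiles. Some genes stand in more than 1 list, and a few named by this rule are not reported here. Promoter letters came from RefSeq GRCh38.p14, and lengths and shared 50-base stretches from GENCODE v29 transcripts. These are newer than hg18 and were used only for sequence, length and gene order. Lengths were known for 14696 genes. Counting intervals are 95% limits, exact Poisson for the CPM of a library and Clopper-Pearson for ratios of reads. They cover counting error only, as PCR copies could not be told from separate molecules. Replicates differed by more than sampling noise (chi-square per degree of freedom 3.93 for BAY1217389 and 3.74 for DMSO), so none looked like a repeat deposit.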

Additional observations from a re-analysis of the deposited data

How the results depend on the processing

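All 6 pathway genes stayed called higher under every alternative fit, in 79 of 79 refits, and the lower 95% counting limit of their count ratios, chosen after seeing the data, kept the direction in all 6. Leaving out each library in turn, with the lone library assumed to vary like the other group, gave log2 fold changes of 2.84 to 2.89 for ISG15, 2.50 to 3.44 for UBA7, 2.66 to 2.70 for UBE2L6, 3.55 to 3.72 for HERC5, 2.36 to 2.47 for HERC6 and 3.64 to 3.79 for USP18. Over the same refits 33 to 37 other list genes were called higher and 18 to 23 lower, against 40 and 25 with all libraries, and 1720 to 2107 and 1687 to 1719 of all genes, against 2428 and 2232. Testing against a fold of 1.2 left 17 list genes higher and 2 lower, and 891 and 303 of all genes, since that test asks for a larger difference. DESeq2 called 1620 genes higher and 1400 lower, with 34 and 21 list genes, and the cause was not tested. With a replicate block, 2466 genes were higher and 2326 lower, and the pathway count stayed at 6. Same-numbered libraries deviated with a correlation of 0.044. The labels do not say whether equal numbers were paired, and counting noise lowers such a correlation, so it cannot decide the matter. Of 39 named list genes, 19 lost their call under at least 1 alternative, and none reversed while called. UBA7 had the fewest DMSO reads of the 6, with 41 and 78.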

Other observations

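The neighbours of the pathway genes, in RefSeq GRCh38.p14 gene order, gave values that belong to no comparison above, and they were named for their position. PPM1K, a mitochondrial phosphatase gene next to HERC6 on chromosome 4, had 27.1 and 25.3 CPM with BAY1217389, against 4.26 and 3.93 CPM with DMSO, a log2 fold change of 2.67 (SE 0.10). On the far side of the pair, PYURF next to HERC5 had 94.9 and 89.5 CPM against 84.2 and 84.5 CPM, which gave a log2 difference of 0.13 (SE 0.04). SERPING1, which encodes the complement C1 inhibitor and neighbours UBE2L6 on chromosome 11, had 1.45 and 1.05 CPM with BAY1217389, against 0.0761 and 0.128 CPM with DMSO, a log2 fold change of 3.58 (SE 0.53). In the DMSO libraries 3 reads equal 0.0763 and 0.0771 CPM, so the size of that difference rests on very few DMSO reads. SERPING1 passed the filter only through the BAY1217389 libraries. HES4, a transcriptional repressor next to ISG15 on chromosome 1, had 63.3 and 64.3 CPM against 35.2 and 37.7 CPM, with 0.81 (SE 0.05) as its log2 fold change, and AGRN, on its other side, had a log2 fold change of 0.27 (SE 0.02). TRAIP beside UBA7 and TUBA8 beside USP18 were not called.

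LOC102723458, an uncharacterised locus annotated over HERC5 and HERC6, had 53 and 33 reads with BAY1217389, against 4 and 8 with DMSO. Because the use of strand in counting is not given, its reads and those of the ligases cannot be told apart.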
